A study of Mus musculus with 24 samples.

Results

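The response of the mouse kidney to streptozotocin diabetes was measured in mice that drank PMX-53, as the difference between 6 diabetic and 6 non-diabetic renal cortex libraries. The members are the 15808 of 48526 genes in the deposited count table that passed an expression filter, in 12 of the 24 libraries of the series. All mice were C57BL/6, with no substrain given in the labels. The diabetic mice had received streptozotocin at 55 mg/kg into the peritoneum on 5 days, starting at 6 weeks of age, and the non-diabetic mice had received sodium citrate in its place. Both groups then drank PMX-53, a cyclic peptide that blocks the C5a receptor C5aR1, at 2 mg/kg for the 24 weeks of follow-up, so the inhibitor is shared and does not differ within the comparison. The other 12 libraries came from 6 diabetic and 6 non-diabetic mice on plain drinking water, called vehicle in the series description. Below, diabetic and non-diabetic mice are those on PMX-53 unless vehicle is named.

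Complement component C5a is a peptide released when C5 is cleaved, and it acts mainly through C5aR1, a receptor of myeloid cells that has also been described on renal cells. Streptozotocin enters cells through the glucose transporter GLUT2, destroys insulin-producing beta cells and alkylates DNA, and GLUT2 is also present in the proximal tubule. The renal cortex consists mostly of proximal tubule, with distal segments, glomeruli and vessels. p53, a transcription factor activated by DNA damage and other stresses, is known to raise genes that halt the cell cycle, such as Cdkn1a, or that feed back on p53, such as Mdm2.

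The diabetic PMX-53 libraries held 10964992 to 18012225 counts and the non-diabetic PMX-53 libraries 15410646 to 17275013. Levels are normalized CPM, each count over its library's total with TMM scaling, and a gene is called where edgeR's quasi-likelihood test gave a Benjamini-Hochberg adjusted p under 0.05 over all 15808 genes. Mitochondrially encoded genes took 25.8% ± 2.56 of counts in diabetic PMX-53 libraries and 22.9% ± 1.51 in non-diabetic PMX-53 libraries (SD, n = 6 each), with an exact two-sided permutation p of 0.0390 that was 0.136 after adjustment over 7 library properties. Ribosomal RNA genes took 24.97% ± 1.99 of counts in diabetic PMX-53 libraries and 22.44% ± 1.38 in non-diabetic PMX-53 libraries (exact permutation p = 0.0368, adjusted 0.136). Mitochondrially encoded ribosomal RNAs count in both shares, so these shares overlap and are not separate results. Without ribosomal RNA genes, the mitochondrially encoded share of the remaining counts was 5.48% ± 0.872 in diabetic and 4.99% ± 0.578 in non-diabetic libraries (exact permutation p = 0.284). Among diabetic PMX-53 libraries, replicates 1 and 6 stood apart from the others at several genes described below. On vehicle, the diabetic libraries stood apart from the other 18 at genes such as Nnt, a mitochondrial transhydrogenase known to carry a deletion in the C57BL/6J substrain. Nnt was at 242 to 272 CPM in diabetic vehicle libraries and 101 to 112 CPM in non-diabetic vehicle libraries, against 109 to 121 CPM in diabetic PMX-53 libraries and 101 to 110 CPM in non-diabetic PMX-53 libraries. Acad10, an acyl-CoA dehydrogenase gene, was at 11.6 to 16.4 CPM in diabetic vehicle libraries and 57.1 to 82.9 CPM in the other 18. Comparisons with the vehicle arm carry that difference, and its part in them was not tested.

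Under PMX-53, 1587 of 15808 genes, or 10%, differed between diabetic and non-diabetic mice (edgeR quasi-likelihood test, Benjamini-Hochberg adjusted). Of these, 872 (5.52% of those tested) were higher and 715 (4.52%) lower in the diabetic mice. Counts of list members below are to be read beside these shares. Only the diabetic mice had received streptozotocin, so the drug and the diabetes cannot be told apart, here or in the results below. Most changes were small, with a median absolute log2 fold change of 0.38 among called genes, and 150 of the 1587 changed by at least 2-fold, 100 higher and 50 lower. The first principal component of the 12 libraries held 25.96% of the variance and separated both groups without overlap. With each of the 12 libraries left out in turn, 869 of the 1587 genes were called every time. Without scaling beyond library totals, 572 genes were higher and 299 lower, which put 65.7% of called genes in the higher direction against 54.95% with TMM.

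Most of the tested targets of p53 were higher in diabetic mice. The list of p53 targets used here also holds Trp53. Of its 28 tested genes, 18 were higher in diabetic mice, against 5.52% of all genes, and 0 were lower. Also 0 were lower at an unadjusted p under 0.05 and 0 by DESeq2 or limma. Of the 18, 17 were called with each library left out in turn. Their median log2 fold change over all 28 was 0.60, against -0.00 over all genes tested, and 16 of them showed no overlap between the 6 diabetic and 6 non-diabetic libraries, a pattern found at 6.00% of all genes in either direction. Cdkn2a, the remaining gene of the list, did not pass the expression filter. Trp53 itself, the gene for p53, had a log2 fold change of 0.08 and was not called.

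Cdkn1a, which encodes the cyclin-dependent kinase inhibitor p21, was at 27.2, 32.3 and 36.9 CPM (lowest, median and highest) in diabetic mice and 2.37, 4.83 and 8.005 CPM in non-diabetic mice. Every diabetic library was above every non-diabetic one, by a fitted 6.92-fold (log2 fold change 2.79 ± 0.22 SE, edgeR adjusted p = 2.76e-08). Eda2r, the ectodysplasin A2 receptor, was at 5.33, 6.09 and 6.35 CPM in diabetic mice and 0.839, 1.07 and 1.21 CPM in non-diabetic mice, with a log2 fold change of 2.52 ± 0.12 (adjusted p = 3.70e-14), the smallest p of the 15808 genes. Phlda3, an inhibitor of Akt signalling, was at 7.26, 7.90 and 8.23 CPM in diabetic mice and 1.72, 2.55 and 3.02 CPM in non-diabetic mice, with a log2 fold change of 1.65 ± 0.13. None of these 3 genes overlapped between groups.

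The more abundant p53 targets varied little within groups. Ccng1, which encodes cyclin G1, was at 239, 255 and 287 CPM in diabetic mice and 118, 131 and 140 CPM in non-diabetic mice (log2 fold change 0.99 ± 0.07, edgeR adjusted p = 1.04e-09). Zmat3, an RNA-binding protein gene, was at 77.4, 81.4 and 83.8 CPM in diabetic mice and 36.7, 40.5 and 47.1 CPM in non-diabetic mice (0.99 ± 0.06, adjusted p = 6.84e-11). Mdm2, the ubiquitin ligase that degrades p53, rose less, with 49.3, 54.7 and 57.4 CPM in diabetic mice and 42.1, 44.4 and 50.8 CPM in non-diabetic mice (0.27 ± 0.05). The lowest diabetic library and the highest non-diabetic library overlapped at Mdm2.

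Psrc1 and Gtse1, which encode microtubule-associated proteins, were scarce but called. Psrc1 was at 1.41, 2.05 and 3.13 CPM in diabetic mice and 0.0579, 0.4656 and 0.584 CPM in non-diabetic mice (log2 fold change 2.41 ± 0.28). Gtse1 was at 1.22, 1.65 and 2.82 CPM in diabetic mice and 0.302, 0.600 and 0.968 CPM in non-diabetic mice (1.55 ± 0.29). Gdf15, a secreted stress cytokine, was at 6.71, 8.89 and 11.2 CPM in diabetic mice and 2.70, 4.02 and 6.44 CPM in non-diabetic mice (1.09 ± 0.18). Of these, Gdf15 differed between arms: its vehicle log2 fold change was 0.27 (edgeR adjusted p = 0.258) and the interaction was 0.82 (adjusted p = 0.0456). Plk2, a polo-like kinase, rose by a log2 fold change of 1.07, and the apoptosis genes Bax, Bbc3, Pmaip1, Tnfrsf10b and Aen rose by 0.33 to 0.79. Targets that were not called included Fas at 0.14, Sesn2 at -0.38 and Plk3 at 0.04.

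**Figure D1:**
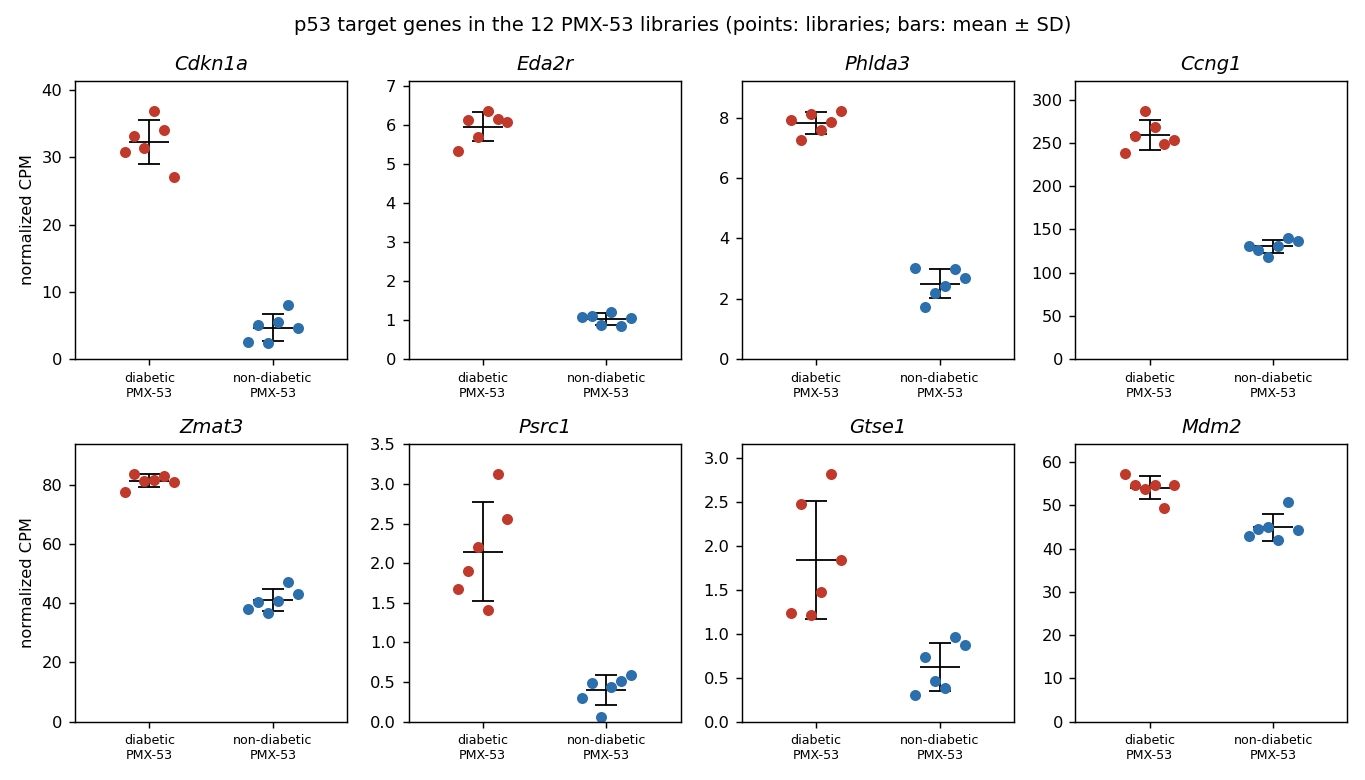
Normalized CPM (vertical axes, linear, from 0) of 8 p53 targets in the 6 diabetic and 6 non-diabetic PMX-53 libraries; points are libraries and bars are the mean ± SD. Diabetic libraries lie above all non-diabetic ones in each panel except Mdm2, where the lowest diabetic value is 49.3 CPM and the highest non-diabetic value 50.8 CPM.

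Promoter windows of the called targets show where the p53 element lies relative to the start of genes that moved. The windows run from 250 bases before to 50 bases after a RefSeq start site on GRCm38.p6. The search was for the p53 response element without a spacer, 20 bases made of 2 half-sites of 10, on both strands, allowing 1 mismatch outside the fixed C and G of each half-site. It matched in 3 of the 14 called targets with a window (Cdkn1a, Ccng1 and Gtse1). The match was in 0 of the 9 other tested genes of the list with a window, and in 0.0670% of all 32851 windows. Capitals mark the match, which begins 51 bases before the start site of Cdkn1a, 195 bases before that of Ccng1 and 1 base before that of Gtse1. A match is a description of these letters, not a site shown to be bound, and a window without one says nothing about p53.
Cdkn1a promoter (chr17:29090729-29091028, plus strand): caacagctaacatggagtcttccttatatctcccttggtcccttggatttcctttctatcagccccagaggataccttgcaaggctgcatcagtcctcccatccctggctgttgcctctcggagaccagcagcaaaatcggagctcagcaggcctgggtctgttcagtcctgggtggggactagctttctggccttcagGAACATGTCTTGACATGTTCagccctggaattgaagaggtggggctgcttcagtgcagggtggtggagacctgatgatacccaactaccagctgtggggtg
Ccng1 promoter (chr11:40755237-40755536, minus strand): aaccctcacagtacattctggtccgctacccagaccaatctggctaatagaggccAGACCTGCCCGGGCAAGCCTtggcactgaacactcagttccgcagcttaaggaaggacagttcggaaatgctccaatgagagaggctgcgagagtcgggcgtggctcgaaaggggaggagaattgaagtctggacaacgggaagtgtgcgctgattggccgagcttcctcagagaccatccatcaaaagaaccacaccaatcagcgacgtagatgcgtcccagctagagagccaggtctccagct
Gtse1 promoter (chr15:85859696-85859995, plus strand): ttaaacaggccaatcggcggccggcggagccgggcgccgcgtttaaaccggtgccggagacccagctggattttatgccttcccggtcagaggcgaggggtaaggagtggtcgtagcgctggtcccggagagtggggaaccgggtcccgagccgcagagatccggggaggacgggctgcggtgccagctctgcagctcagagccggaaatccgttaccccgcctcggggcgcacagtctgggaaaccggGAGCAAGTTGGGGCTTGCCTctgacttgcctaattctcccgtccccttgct

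Further genes were named from the 15 largest rises and the 15 largest falls among called genes whose mean log2 CPM over all 24 libraries was 1 or more, so scarcer genes with larger fold changes are not ranked here. Ugt1a10 (chr1:88055388-88219004, plus strand), a UDP-glucuronosyltransferase, was at 1.94, 2.84 and 9.98 CPM in diabetic mice and 0.232, 0.474 and 0.614 CPM in non-diabetic mice, with a log2 fold change of 3.15 ± 0.66 (edgeR adjusted p = 0.00411). Diabetic replicate 6 held the 9.98 CPM, and Ugt1a genes share exons, so their counts cannot be assigned to Ugt1a10 alone. Ephx1, the microsomal epoxide hydrolase, was at 38.9, 48.3 and 69.6 CPM in diabetic mice and 16.6, 16.99 and 24.5 CPM in non-diabetic mice (1.47 ± 0.14, adjusted p = 4.02e-07). Kynu, which encodes the kynureninase of tryptophan breakdown, was at 17.3, 19.7 and 30.8 CPM in diabetic mice and 4.51, 5.88 and 8.005 CPM in non-diabetic mice (1.81 ± 0.21). All 3 genes were without overlap between groups.

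Other genes among those 15 rises were Dscaml1, a cell adhesion gene, at 2.93 ± 0.34 on the log2 scale, Bhmt, the betaine-homocysteine methyltransferase, at 1.61, the aldehyde dehydrogenases Aldh1a7 at 1.60 and Aldh1b1 at 1.499, Pigz, an enzyme of lipid anchor synthesis, at 1.79, Kcnip2, a potassium channel subunit, at 1.33, and Grem1, a bone morphogenetic protein antagonist, at 1.78 ± 0.44. Ftcd, an enzyme of histidine breakdown, was at 24.8, 45.5 and 55.7 CPM in diabetic mice and 14.3, 16.9 and 19.0 CPM in non-diabetic mice (1.29 ± 0.20). The 2 lowest diabetic values of Ftcd were 27.0 CPM in replicate 1 and 24.8 CPM in replicate 6. Tmem43, a nuclear envelope protein gene, was at 22.3, 25.7 and 28.4 CPM in diabetic mice and 11.7, 12.4 and 15.4 CPM in non-diabetic mice (0.96 ± 0.08, edgeR adjusted p = 2.94e-09), and it had nearly the same log2 fold change on vehicle, at 0.97.

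Among the 15 falls was Cntnap5a, a neuronal adhesion gene, at 1.28, 1.81 and 2.97 CPM in diabetic mice and 4.39, 8.16 and 12.6 CPM in non-diabetic mice (log2 fold change -2.10 ± 0.32, edgeR adjusted p = 1.91e-04). Ly6e, a surface protein held by a lipid anchor, was at 74.7, 103 and 148 CPM in diabetic mice and 254, 298 and 312 CPM in non-diabetic mice (-1.47 ± 0.13, adjusted p = 1.71e-07). Neither gene overlapped between groups. Ace, the angiotensin-converting enzyme of the proximal brush border, was at 80.1, 100 and 122 CPM in diabetic mice and 169, 217 and 237 CPM in non-diabetic mice (-1.05 ± 0.18, adjusted p = 5.77e-04). In the same system Agt, the precursor of angiotensin, rose by 0.66 ± 0.16 and Ren1, the renin gene, was not called at -0.04 (adjusted p = 0.958). Il34, a macrophage growth factor known to be made by injured tubules, was at 4.71, 6.62 and 10.03 CPM in diabetic mice and 10.8, 17.2 and 19.7 CPM in non-diabetic mice (-1.24 ± 0.23).

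Smaller falls with narrow spread included Met, the hepatocyte growth factor receptor, at 146, 168 and 182 CPM in diabetic mice and 213, 250 and 278 CPM in non-diabetic mice (log2 fold change -0.56 ± 0.07, edgeR adjusted p = 7.17e-06). Fmo5, a flavin monooxygenase, was at 54.9, 60.2 and 64.3 CPM in diabetic mice and 112, 116 and 132 CPM in non-diabetic mice (-1.01 ± 0.13). Baz1b, a chromatin remodeller subunit, Stk35, a kinase, and Cldn10, a tight junction claudin, fell by 0.35, 0.44 and 0.56 on the log2 scale. Arnt2, a partner of the aryl hydrocarbon receptor family, moved the other way by 0.63 ± 0.06. Other genes among the 15 falls were Anxa13, an annexin, at -1.56, Srd5a2, a steroid reductase, at -1.25, Hrg, a plasma glycoprotein, at -1.19, Osr2, a kidney transcription factor, at -1.26, and Slitrk6 at -1.25. Of the genes among the 15 falls, 4 lost the call when single libraries were left out. Angptl7 lost it without non-diabetic replicate 3 (adjusted p = 0.0588). Apoh lost it without diabetic replicates 1 (0.0553) or 6 (0.0513) or non-diabetic replicates 3 (0.0590) or 4 (0.0525). Mfsd2a lost it without diabetic replicates 1 (0.0532), 4 (0.0553) or 5 (0.0529) or non-diabetic replicate 3 (0.0570). Car3 lost it without any of 8 libraries, with an adjusted p of up to 0.110.

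Targets of NRF2, the transcription factor of the antioxidant response, were partly raised. Of 22 tested targets, 9 were higher in diabetic mice, against 5.52% of all genes, and the other 13 were not called. Of the 9, 6 were called with each library left out in turn, and the list median log2 fold change was 0.27. Gsta2, a glutathione transferase, was at 77.9, 90.1 and 144 CPM in diabetic mice and 36.4, 41.9 and 53.8 CPM in non-diabetic mice, without overlap (1.22 ± 0.20, edgeR adjusted p = 4.82e-04). The pentose phosphate enzymes Pgd and Tkt rose by 0.33 and 0.31, and the efflux transporters Abcc4 and Abcc2 by 0.62 and 0.28. Gclc, Gclm and Hmox1, which encode glutathione synthesis enzymes and a heme oxygenase, were not called at 0.13, -0.16 and -0.23. Of 20 genes of glutathione and superoxide defence, 1 changed, where 10% of all genes changed in either direction. Sod1, the cytosolic superoxide dismutase, fell by 0.40 ± 0.06 on the log2 scale. Without diabetic replicates 1 and 6, 6 of the 22 NRF2 targets were called higher. The antioxidant response element was searched as TGACNNNGC, with N any base, on both strands of the promoter windows described above. It was in 3 of the 9 higher targets (Abcc2, Abcc4 and Pgd) and in 5 of the 9 others with a window. Of all 32851 windows, 12.39% held it, so this short element did not mark the called targets.

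Several markers of the distal nephron were higher in diabetic mice. Of 11 markers of the distal convoluted and connecting tubule, 7 were higher, against 5.52% of all genes, and the other 4 were not called. All 11 had a positive log2 fold change, and the median was 0.27. Calb1, the calcium-buffering calbindin, was at 300, 373 and 415 CPM in diabetic mice and 156, 188 and 276 CPM in non-diabetic mice (0.82 ± 0.18, edgeR adjusted p = 0.00663). Trpv5, the apical calcium channel, was at 18.3, 26.5 and 29.5 CPM in diabetic mice and 12.6, 15.8 and 17.9 CPM in non-diabetic mice (0.70 ± 0.14). S100g, a second calbindin, was at 232, 275 and 302 CPM in diabetic mice and 125, 178 and 191 CPM in non-diabetic mice (0.66 ± 0.18). Groups did not overlap at these 3 calcium-handling genes. Trpm6, a magnesium channel, was at 47.1, 55.9 and 75.1 CPM in diabetic mice and 27.7, 33.3 and 53.6 CPM in non-diabetic mice (0.68 ± 0.18). By contrast Slc12a3, the thiazide-sensitive sodium chloride cotransporter, was not called at 0.09, and neither was Klk1 at 0.09. The summed level of all 11 markers was 2928 to 3659 CPM in diabetic libraries and 2445 to 3287 CPM in non-diabetic libraries, which overlapped, and in bulk tissue more cells of a type and more RNA per cell cannot be told apart. The count of higher markers was 4 without diabetic replicate 5, diabetic replicate 6 or non-diabetic replicate 3, 4 without scaling beyond library totals, and 2 without both diabetic replicates 1 and 6. Markers of the thick ascending limb, the segment before these, did not share the rise. Of 11 tested, 0 were higher and 1, Cldn10, was lower. Log2 fold changes were negative at 7 of these 11 and positive at 4, with a median of -0.12.

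Further along the nephron, 4 of 11 principal cell markers were higher, against 5.52% of all genes, and the other 7 were not called. Kcne1, a potassium channel subunit, was at 11.3, 16.7 and 20.8 CPM in diabetic mice and 7.66, 8.05 and 9.73 CPM in non-diabetic mice (log2 fold change 0.99 ± 0.14, edgeR adjusted p = 4.63e-05). The epithelial sodium channel subunits Scnn1b and Scnn1g rose by 0.51 ± 0.10 and 0.48 ± 0.11, while the water channel Aqp2 was not called at 0.35 (adjusted p = 0.488). Non-diabetic replicate 6 held 110 CPM of Aqp2 against a group median of 40.8 CPM, and without it Aqp2 was called higher (adjusted p = 0.0258). Markers of medulla and papilla had a summed level of 243 to 405 CPM in diabetic libraries and 288 to 524 CPM in non-diabetic libraries. Slc14a2, a medullary marker below the filter, had 67 of its 81 counts in a single library. The part of uneven medullary tissue in the marker values was not tested. Of 12 intercalated cell markers all were positive and 2 were called, with Atp6v0d2, a proton pump subunit, at 0.55 ± 0.09 (adjusted p = 1.68e-04). Their summed level was 562 to 611 CPM in diabetic libraries and 462 to 514 CPM in non-diabetic libraries, without overlap. Atp2b4, a plasma membrane calcium pump, rose by 0.58 ± 0.10. Of 26 genes of sodium transport along the nephron, 6 were higher and 2 lower, where 5.52% of all genes were higher and 4.52% lower. The higher ones included the regulatory kinases Wnk1 at 0.28 and Stk39 at 0.44. The lower ones were Kcnj16, a potassium channel, at -0.18, and Fxyd2, a sodium pump subunit, at -0.26. The count of lower genes was 0 without diabetic replicate 6, 1 without non-diabetic replicate 4 or 5, 0 without both diabetic replicates 1 and 6, and 1 without scaling beyond library totals.

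Several heat shock and endoplasmic reticulum chaperones were lower in diabetic mice. Of 14 heat shock genes 6 were lower, against 4.52% of all genes, and the other 8 were not called. The median log2 fold change was -0.39. Hsp90aa1, the inducible cytosolic HSP90, was at 102, 125 and 163 CPM in diabetic mice and 160, 214 and 332 CPM in non-diabetic mice (-0.78 ± 0.17, edgeR adjusted p = 0.00464), and only the highest diabetic and the lowest non-diabetic library overlapped. Hsp90ab1, the constitutive form, was at 539, 658 and 736 CPM in diabetic mice and 804, 873 and 1165 CPM in non-diabetic mice, without overlap (-0.51 ± 0.12). Hspe1, the co-chaperone of the mitochondrial chaperonin, was at 40.2, 43.1 and 48.1 CPM in diabetic mice and 46.6, 56.1 and 67.3 CPM in non-diabetic mice (-0.37 ± 0.09). The count of lower heat shock genes was 3 without non-diabetic replicate 5, 3 without diabetic replicates 1 and 6, and 3 without scaling beyond library totals, where Hspe1 had an adjusted p of 0.0760. Nuclear long noncoding RNAs, listed as a sign of RNA quality, had a summed level of 18184 to 19993 CPM in diabetic libraries and 19714 to 23788 CPM in non-diabetic libraries. Of the 5 tested, 4 were lower at an unadjusted p under 0.05 and 1 was called, Snhg11 at -0.39. Their part in the chaperone changes was not tested.

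Of 26 genes of the unfolded protein and integrated stress response, 7 were lower and 3 higher, and the median was -0.24. Over all genes 4.52% were lower and 5.52% higher. Hsp90b1, the endoplasmic reticulum HSP90, was at 221, 242 and 303 CPM in diabetic mice and 304, 355 and 453 CPM in non-diabetic mice (-0.55, edgeR adjusted p = 0.00496). Pdia6, a disulfide isomerase, was at 70.5, 77.5 and 83.8 CPM in diabetic mice and 94.3, 106 and 130 CPM in non-diabetic mice (-0.49 ± 0.10, adjusted p = 0.00190). Dnajc3, a co-chaperone that limits the kinase PERK, was at 109, 116 and 127 CPM in diabetic mice and 139, 152 and 177 CPM in non-diabetic mice (-0.39 ± 0.07, adjusted p = 3.05e-04). None of these 3 overlapped between groups. Hspa5, the main chaperone of the compartment, was not called at -0.39 (adjusted p = 0.358). In the other direction Asns, the asparagine synthetase of the amino acid response, rose by 0.86 ± 0.21. The count of higher genes was 1 without diabetic replicate 6, non-diabetic replicate 1 or non-diabetic replicate 2, and likewise 1 without diabetic replicates 1 and 6.

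Promoter windows of the lowered chaperones are shown for the letters they share. The endoplasmic reticulum stress response element, searched as CCAAT and CCACG with 9 bases of any kind between them, on both strands, was in 4 of the 7 lower genes (Calr, Dnajc3, Hsp90b1 and Pdia6), in 2 of the 18 others with a window, and in 0.119% of all 32851 windows. The heat shock element, searched as GAA, TTC and GAA with 2 bases of any kind between neighbours, on both strands, was in 2 of the 3 lower heat shock genes with a window (Hspd1 and Hspe1), in 1 of the 7 others, and in 0.603% of all windows. Hspd1 and Hspe1 lie head to head on chromosome 1, so their windows overlap. Capitals mark the matches: 2 in Hsp90b1, the first starting 212 bases before the start site, 1 in Pdia6 starting 98 bases before it, and 2 overlapping ones in Hspe1 starting 89 bases before it. Calr lost its call without diabetic replicates 5 (edgeR adjusted p = 0.0623) or 6 (0.0665) or non-diabetic replicates 4 (0.0525) or 5 (0.0708), and Hspd1 without diabetic replicate 6 (0.0518) or non-diabetic replicate 5 (0.0577). These lists were assembled from genes known to answer to such elements, and the matches do not show that the elements act here.
Hsp90b1 promoter (chr10:86705395-86705694, minus strand): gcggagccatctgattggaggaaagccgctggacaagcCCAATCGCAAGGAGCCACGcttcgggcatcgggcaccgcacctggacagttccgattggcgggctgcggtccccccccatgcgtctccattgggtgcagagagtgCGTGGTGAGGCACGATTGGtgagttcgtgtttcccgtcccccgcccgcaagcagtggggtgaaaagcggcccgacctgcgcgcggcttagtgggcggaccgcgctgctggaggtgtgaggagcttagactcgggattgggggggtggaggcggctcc
Pdia6 promoter (chr12:17266339-17266638, plus strand): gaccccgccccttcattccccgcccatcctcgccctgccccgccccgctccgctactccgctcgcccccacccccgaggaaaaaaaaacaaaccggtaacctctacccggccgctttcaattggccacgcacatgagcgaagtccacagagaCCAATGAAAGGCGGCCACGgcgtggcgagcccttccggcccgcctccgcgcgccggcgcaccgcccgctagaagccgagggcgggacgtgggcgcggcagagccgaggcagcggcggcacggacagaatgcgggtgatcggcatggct
Hspe1 promoter (chr1:55087898-55088197, plus strand): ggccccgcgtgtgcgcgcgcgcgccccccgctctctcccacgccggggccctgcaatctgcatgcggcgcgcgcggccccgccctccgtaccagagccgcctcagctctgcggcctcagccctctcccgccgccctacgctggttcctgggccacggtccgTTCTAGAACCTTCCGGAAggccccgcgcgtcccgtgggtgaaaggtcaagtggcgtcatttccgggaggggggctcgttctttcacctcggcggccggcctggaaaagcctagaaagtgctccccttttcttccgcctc

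Several genes that are more active in male kidneys and answer to androgen were lower in diabetic mice. Of 23 tested, 7 were lower, against 4.52% of all genes, and the other 16 were not called. At 12 of the 23 the diabetic libraries lay entirely below the non-diabetic ones, as they did at 479 of all 15808 genes. The median log2 fold change was -0.50. Cyp4b1, a fatty acid hydroxylase, was at 1216, 1396 and 1820 CPM in diabetic mice and 2685, 2970 and 3405 CPM in non-diabetic mice (-1.05, edgeR adjusted p = 0.00730). Nudt19, a coenzyme A hydrolase, was at 188, 218 and 301 CPM in diabetic mice and 388, 467 and 557 CPM in non-diabetic mice (-1.03, adjusted p = 6.07e-04). Odc1, the ornithine decarboxylase of polyamine synthesis, was at 274, 371 and 407 CPM in diabetic mice and 546, 577 and 860 CPM in non-diabetic mice (-0.91 ± 0.19). All 3 were without overlap. Of 15 tested genes more active in female kidneys, 0 were higher and 2 were also lower, with a median log2 fold change of -0.12. Their summed level was 866 to 992 CPM in diabetic libraries and 1057.5 to 1386 CPM in non-diabetic libraries, without overlap. That count of lower genes was 1 with any of the 12 libraries left out. Abcc3 is in both lists.

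Kap, an androgen-regulated protein and among the most abundant proximal tubule transcripts, was at 4060, 5108 and 5899 CPM in diabetic mice and 7991, 9072 and 10405 CPM in non-diabetic mice. The groups did not overlap, yet Kap was not called, with a log2 fold change of -0.85 ± 0.57 (edgeR adjusted p = 0.383). That fit takes its spread from all 24 libraries, in which diabetic vehicle mice had 145 to 1007 CPM except for replicate 4 at 5556 CPM. In a fit of the 12 PMX-53 libraries alone the log2 fold change was the same and the adjusted p 4.70e-05. Without diabetic vehicle replicate 4 the adjusted p was 0.0422. The number of lower male-biased genes was 14 in the fit of 12 libraries and 4 without diabetic replicate 6 or non-diabetic replicate 3. It was 3 without both diabetic replicates 1 and 6.

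Proximal tubule markers were lower in part. Of 12 markers of its last segment, S3, 3 were lower and the other 9 were not called, with Atp11a, a lipid flippase, at 911, 987 and 1310 CPM in diabetic mice and 1510, 1722 and 2164 CPM in non-diabetic mice (log2 fold change -0.75 ± 0.17, edgeR adjusted p = 0.00752). The summed S3 level was 2620 to 3379 CPM in diabetic libraries and 3860 to 4855 CPM in non-diabetic libraries, and the summed level of 14 markers of the first segments was 18979.5 to 24759 CPM in diabetic libraries and 26628 to 30683 CPM in non-diabetic libraries. Neither pair of ranges overlapped, while 1 of those 14 markers was called higher and 2 lower. Over all genes 5.52% were higher and 4.52% lower. These sums are not separate from the male-biased genes above. Kap and Cyp2e1 are also first-segment markers, and Slc22a7, Slc7a13 and Acy3 are also S3 markers. Abundant members such as Kap and Atp11a weigh heavily in the sums. Miox, the first enzyme of inositol breakdown, fell by 0.55 ± 0.13 on the log2 scale. The part of a shift in tubular cell content in the gene changes above was not tested. The count of lower S3 markers was 1 without diabetic replicate 6.

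**Figure D2:**
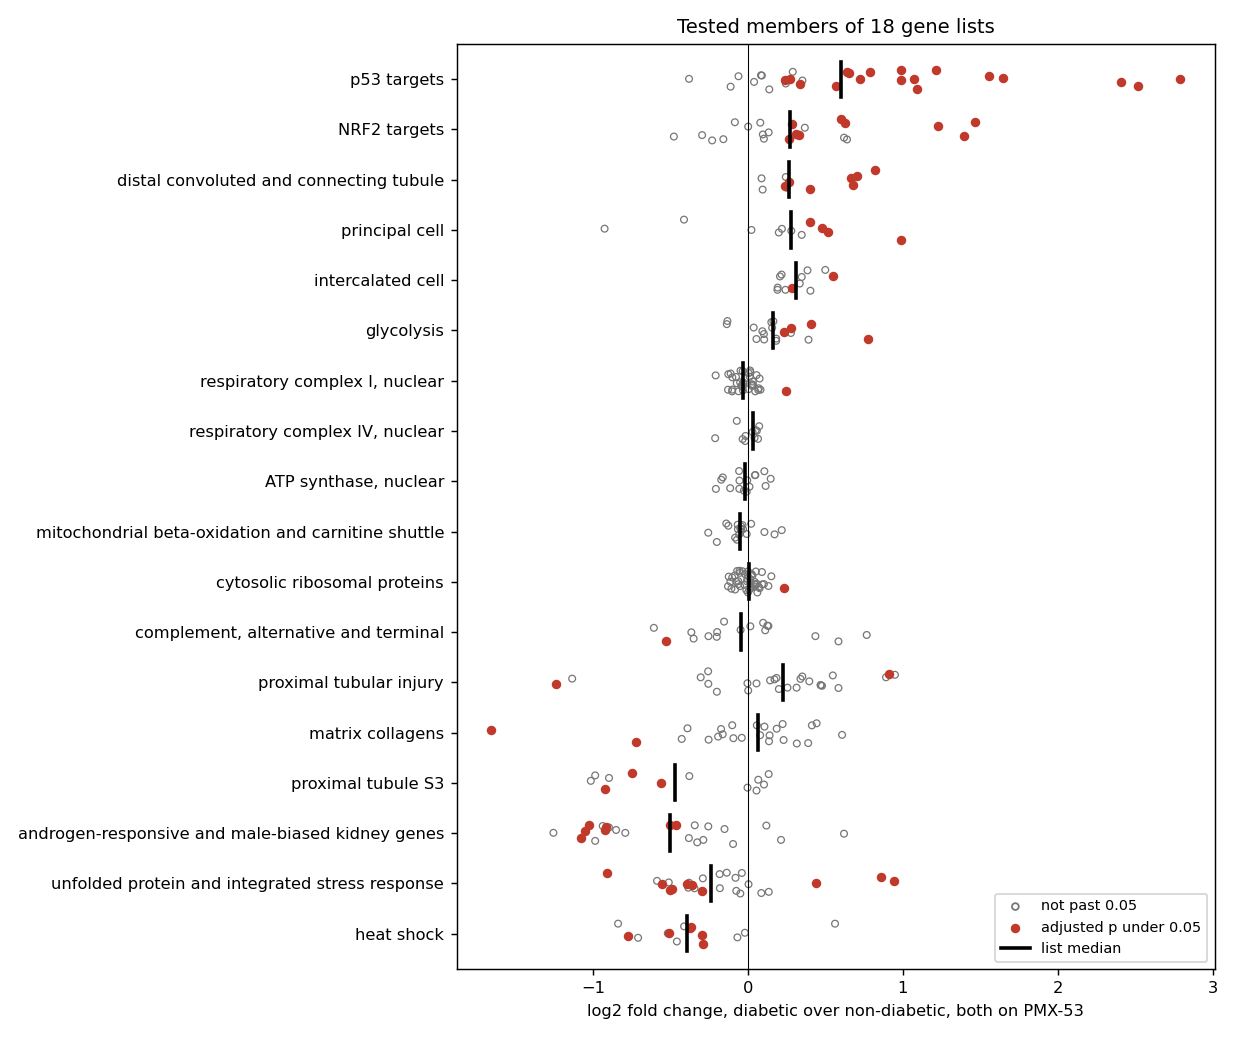
Log2 fold change, diabetic over non-diabetic, both on PMX-53 (horizontal axis), of the tested members of 18 gene lists; filled points passed an adjusted p of 0.05, open points did not, and thick bars are list medians. The p53 targets reach 2.79 and have a median of 0.60, the respiratory chain and ribosomal lists lie around 0, and heat shock and male-biased genes lie mostly below 0.

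Genes of energy metabolism are set beside the 10% of all genes called under PMX-53, in either direction. At that share, lists of this size hold few called genes. Of 36 nuclear complex I genes 1 was called, and edgeR called 0 of 11 complex IV genes and 0 of 16 ATP synthase genes. At an unadjusted p under 0.05 those numbers were 4, 0 and 3, by DESeq2 1, 0 and 2, and by limma 2, 0 and 3. Of 19 genes of mitochondrial beta-oxidation edgeR called 0, with 4 at an unadjusted p under 0.05, 1 by DESeq2 and 4 by limma. On vehicle, where 20.4% of all genes were higher, diabetic mice had 27 complex I genes, 11 complex IV genes and 12 ATP synthase genes higher. The interaction passed for 20, 10 and 10 genes of these lists, each with a lower log2 fold change under PMX-53, which was the case at 4.76% of all genes (and the reverse at 4.66%). Cytosolic ribosomal proteins showed the same split, with 1 of 46 higher under PMX-53, 42 higher on vehicle and 28 past the interaction test. These interaction counts rest on the diabetic vehicle libraries that stand apart at Nnt and Acad10.

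Of 18 glycolytic genes 4 were higher, against 5.52% of all genes, and the other 14 were not called. The median log2 fold change was 0.16. Pkm, the pyruvate kinase, was at 126, 148 and 159 CPM in diabetic mice and 94.9, 111 and 120 CPM in non-diabetic mice, without overlap (0.41 ± 0.09, edgeR adjusted p = 0.00481). Aldoc, an aldolase, rose by 0.77 ± 0.15. Both changed less than on vehicle, with interactions of -0.67 for Pkm and -1.20 for Aldoc (adjusted p = 0.00189 and 7.53e-04). Of 10 genes of glucose transport 2 were higher, both without overlap and both called with each library left out in turn. They were Slc5a10, a sugar cotransporter, at 113, 135 and 167 CPM in diabetic mice and 74.2, 90.9 and 109 CPM in non-diabetic mice (0.63 ± 0.14, adjusted p = 0.00527), and Slc2a4, the insulin-regulated GLUT4, by 0.52. Those not called included the glucose transporters Slc5a2 at 0.01, Slc5a1 at -0.00 and Slc2a2 at 0.21. Of 10 genes of gluconeogenesis 3 were higher, among them Pck2, the mitochondrial form of its carboxykinase, by 0.38, while the cytosolic form Pck1 was not called at -0.13. That count was 1 without diabetic replicate 1 or non-diabetic replicates 2, 3 or 4, and 1 without the expression filter. The glucose-responsive Txnip was not called at -0.10. Pck1 was at 619, 1110 and 1717 CPM in diabetic mice and 1002, 1313 and 1404 CPM in non-diabetic mice, so the diabetic libraries spread beyond the non-diabetic range on both sides. The lowest of them were replicates 1 and 6, at 619 and 660 CPM.

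The targeted receptor was barely detected. C5ar1 had 5 to 22 counts in each of the 12 PMX-53 libraries and did not differ detectably at that depth, with a log2 fold change of 0.02 ± 0.34 (edgeR adjusted p = 0.985). C5ar2, the second C5a receptor, and Hc, the gene for C5, held 76 and 3 counts over the 12 libraries and were not tested. C3, the central complement component, was at 14.2, 17.9 and 59.7 CPM in diabetic mice and 9.38, 16.6 and 24.8 CPM in non-diabetic mice and was not called (0.77 ± 0.52, adjusted p = 0.388). Diabetic replicates 1 and 6 held the 2 highest values, 45.5 and 59.7 CPM. On vehicle the log2 fold change of C3 was 4.04, and the interaction was -3.28 ± 0.73 (adjusted p = 0.00779). Cfb, complement factor B, fell by 0.53 ± 0.14, and Masp1, a lectin pathway protease, rose by 1.67 ± 0.27 from a low level. Macrophage and dendritic cell markers gave 0 of 16 called by edgeR, against 10% of all genes, 2 at an unadjusted p under 0.05, 0 by DESeq2 and 1 by limma. Their summed levels were 71.3 to 121 CPM in diabetic libraries and 79.5 to 111 CPM in non-diabetic libraries.

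Of 26 genes of proximal tubular injury, 1 was higher and 1 lower, near the shares of all genes (5.52% higher and 4.52% lower). Log2 fold changes were positive at 19 of the 26 and negative at 7, with a median of 0.23. At an unadjusted edgeR p under 0.05, 6 were higher and 2 lower, against 2001 and 1858 of all 15808 genes. The summed level was 994 to 1434 CPM in diabetic libraries and 634 to 892 CPM in non-diabetic libraries, without overlap. The abundant Spp1 weighs heavily in that sum. The kidney injury markers Havcr1 and Lcn2 were not called, at -0.31 (edgeR adjusted p = 0.799) and 0.34 (adjusted p = 0.758). Spp1, which encodes osteopontin, was at 526, 561 and 799 CPM in diabetic mice and 260, 340 and 395 CPM in non-diabetic mice, without overlap (0.91 ± 0.26, adjusted p = 0.0276). Its call was lost without diabetic replicates 1 (adjusted p = 0.0586) or 6 (0.0637) or non-diabetic replicates 1 (0.0583), 2 (0.0549) or 3 (0.0640). Of 24 matrix collagens 2 were lower and the other 22 were not called, Col5a2 by 0.72 and Col19a1 by 1.66 on the log2 scale. Basement membrane genes had 3 of 23 higher and 1 lower, where 5.52% of all genes were higher and 4.52% lower. Lama5, the laminin alpha chain of the glomerular basement membrane, was at 212, 222 and 254 CPM in diabetic mice and 160, 183 and 195 CPM in non-diabetic mice (0.33 ± 0.06, adjusted p = 6.52e-04).

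Of 35 genes of transforming growth factor beta signalling and matrix turnover, 6 were higher and 2 lower. Over all genes 5.52% were higher and 4.52% lower. Of the 8 called genes, 4 were called with each library left out in turn. Bmp7, a kidney growth factor that counters that pathway, was at 40.9, 44.2 and 50.03 CPM in diabetic mice and 31.1, 33.4 and 37.4 CPM in non-diabetic mice (log2 fold change 0.39 ± 0.07, edgeR adjusted p = 4.12e-04). Fn1, which encodes fibronectin, was at 50.9, 63.7 and 81.3 CPM in diabetic mice and 33.2, 42.9 and 48.9 CPM in non-diabetic mice (0.60 ± 0.15, adjusted p = 0.0150). Both were without overlap, and Smad7, an intracellular inhibitor of the pathway, fell by 0.33 ± 0.09. The count of higher genes was 3 without diabetic replicate 2, diabetic replicate 6 or non-diabetic replicate 3, and 1 without both diabetic replicates 1 and 6, where Fn1 had an adjusted p of 0.0794. All 9 tested fibroblast markers had a positive log2 fold change, with a median of 0.39, and their summed level was 189 to 314 CPM in diabetic libraries and 161 to 237 CPM in non-diabetic libraries. Of the 9, 2 were called higher, the small proteoglycan Dcn at 0.52 and the actin-binding Gsn at 0.45. That count was 0 without any of diabetic replicates 2, 5 or 6 or non-diabetic replicates 1, 2 or 3, without both diabetic replicates 1 and 6, or without scaling beyond library totals. Their part in the matrix gene changes was not tested.

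Among cell cycle genes, 2 of 27 were higher, near the 5.52% of all genes. Of the 27, 24 had a positive log2 fold change, and the median was 0.35. At an unadjusted edgeR p under 0.05, 10 were higher and 0 lower, against 2001 and 1858 of all 15808 genes. Their summed level was 367 to 448 CPM in diabetic libraries and 237 to 268 CPM in non-diabetic libraries, without overlap. The abundant Ccnd1 weighs heavily in that sum. The count of higher genes was 4 without diabetic replicate 3, 1 without both diabetic replicates 1 and 6, and 1 without scaling beyond library totals. Ccnd1, which encodes cyclin D1, was at 220, 244 and 325 CPM in diabetic mice and 110, 130 and 135 CPM in non-diabetic mice, a fitted 2.07-fold difference without overlap (log2 fold change 1.05 ± 0.14, edgeR adjusted p = 4.57e-05). On vehicle its log2 fold change was 0.24 (adjusted p = 0.175), and the interaction was 0.81 ± 0.20 (adjusted p = 0.0138). Rrm1, a ribonucleotide reductase subunit, rose by 0.37 ± 0.10. In tryptophan and NAD metabolism, besides the rise of Kynu, 4 of 20 genes were lower, against 4.52% of all genes. They included Aspdh, an aspartate dehydrogenase family gene, lower by 0.68 ± 0.13, and Nadk, the NAD kinase, by 0.28 ± 0.06. In cholesterol synthesis 3 of 24 were higher and 1 lower, where 5.52% of all genes were higher and 4.52% lower. Among the higher were Insig1, a sterol sensor, at 0.65 ± 0.12 and Sqle, the squalene epoxidase, at 0.51 ± 0.10. The smooth muscle myosin Myh11 was at 7.07, 12.7 and 22.2 CPM in diabetic mice and 5.59, 6.39 and 8.25 CPM in non-diabetic mice (1.04 ± 0.22). Of 13 mesangial and smooth muscle markers, 4 were higher, against 5.52% of all genes.

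The change under PMX-53 was set beside the change on vehicle, with which it shares no library. On vehicle 6363 genes were called, or 40.3%. Of the 1587 genes called under PMX-53, 1210 were also called on vehicle, which is 76.2% of the 1587 and 19.0% of the 6363, and 1190 of these had the same direction. Over all 1587, 1483 genes (93.4%) had the same sign on vehicle, against 69.3% of all 15808, and 878 had a smaller absolute log2 fold change under PMX-53. For Eda2r the log2 fold changes were 2.52 under PMX-53 and 3.14 on vehicle, for Cdkn1a 2.79 and 3.57, and for Ccng1 0.99 and 1.07. Of the 28 tested genes of the p53 list, 22 were higher and 1 lower on vehicle. Over all genes 20.4% were higher and 19.9% lower there. The difference between arms passed for 5 of the 28, 1 positive and 4 negative, where 4.66% of all genes were positive and 4.76% negative. A p that misses the threshold does not show that the arms act alike.

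The interaction, which tests whether the diabetes change differed between PMX-53 and vehicle, passed for 1489 genes, or 9.42%. It passed for 236 of the 1587 genes called under PMX-53. Of these, 162 moved in the same direction with a smaller change under PMX-53, 8 in the same direction with a larger change, and 66 in the opposite direction. At 447 of the 1489 genes the diabetic vehicle libraries lay outside all 18 others, against 9 genes for the diabetic PMX-53 libraries. These counts were made only among genes selected by the interaction test, so no share over all genes stands beside them.

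Rhoq, a small GTPase known for its part in insulin-stimulated glucose transport, differed between the arms. It was at 64.0, 75.4 and 79.2 CPM in diabetic PMX-53 mice and 47.2, 48.6 and 51.5 CPM in non-diabetic PMX-53 mice (log2 fold change 0.58 ± 0.06, edgeR adjusted p = 1.72e-07). On vehicle the log2 fold change was -0.03, and the interaction was 0.61 (adjusted p = 5.52e-05). Kl, the longevity-associated co-receptor Klotho, was at 787, 887 and 966 CPM in diabetic PMX-53 mice and 778, 782 and 803 CPM in non-diabetic PMX-53 mice and was not called (0.17 ± 0.06, adjusted p = 0.0857), while it fell by 0.60 on the log2 scale on vehicle and had an interaction of 0.77 (adjusted p = 1.32e-05). Without diabetic PMX-53 replicate 6, Kl was called higher (adjusted p = 0.0452). B4galt5, a galactosyltransferase, fell in both arms, by 0.69 under PMX-53 and by 1.86 on vehicle.

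**Figure D3:**
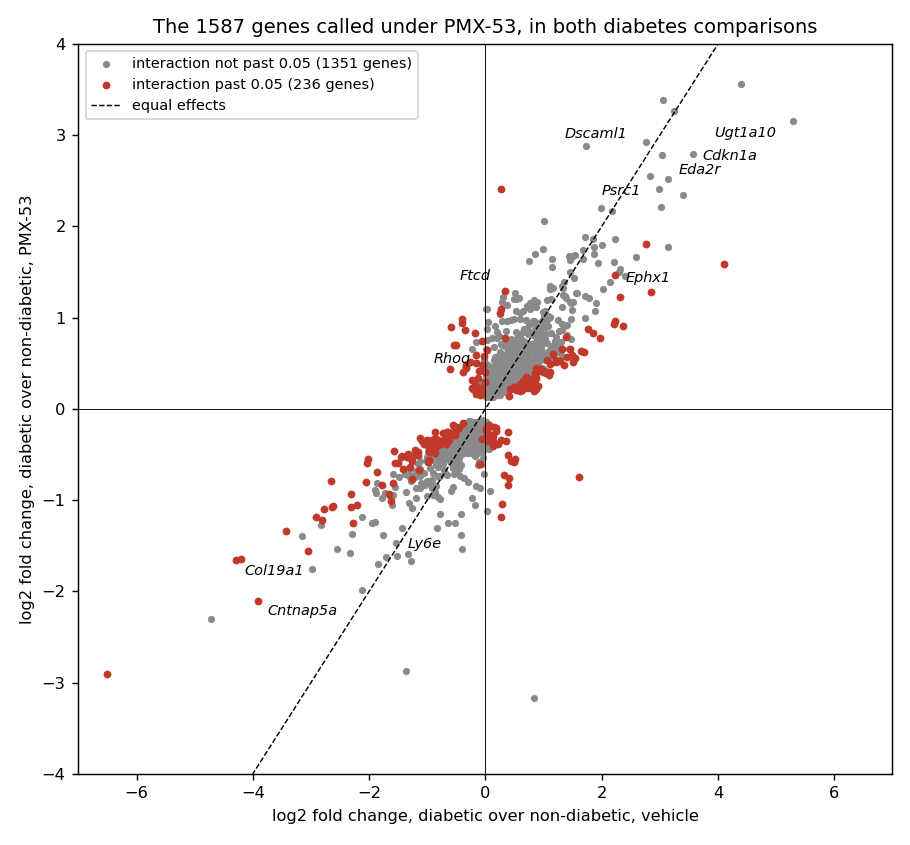
Log2 fold change, diabetic over non-diabetic, under PMX-53 (vertical axis) against that on vehicle (horizontal axis) for the 1587 genes called under PMX-53; red marks the 236 genes whose interaction passed an adjusted p of 0.05, and the dashed line marks equal changes. Most points lie in the upper right and lower left, with 1483 of 1587 genes on the same side of 0 in both arms.

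The diabetic PMX-53 libraries were not uniform. Replicates 1 and 6 lay below the other 4 at Rhoq (68.0 and 64.0 CPM against 74.8 to 79.2 CPM), at Pcdh7, a protocadherin (15.1 and 12.7 CPM against 20.3 to 32.9 CPM), and at Adam11 (14.9 and 12.1 CPM against 29.2 to 34.4 CPM). They were also lowest at the androgen-responsive Cyp4a12a (52.8 and 19.9 CPM against 74.2 to 91.5 CPM) and highest at Slc5a1, a sodium glucose cotransporter (75.5 and 70.3 CPM against 38.3 to 48.9 CPM). Cyp4a12a fell by 1.08 on the log2 scale and lost its call without diabetic replicate 1 (edgeR adjusted p = 0.0596) or non-diabetic replicates 3 (0.0514) or 4 (0.0522). At Kap the same pair were the lowest of their group (4252 and 4060 CPM against 4677 to 5899 CPM). Without both, 1040 genes were called, 614 higher and 426 lower, and 17 p53 targets were higher. Of the 109 called genes named here, 88 stayed called without both, and those that lost the call included Trpm6, S100g, Hsp90ab1, Grem1, Cfb, Col5a2 and Rrm1, with adjusted p-values of 0.0553 to 0.0950. The labels give no reason for the split and say no more of the replicates than their number.

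**Figure D4:**
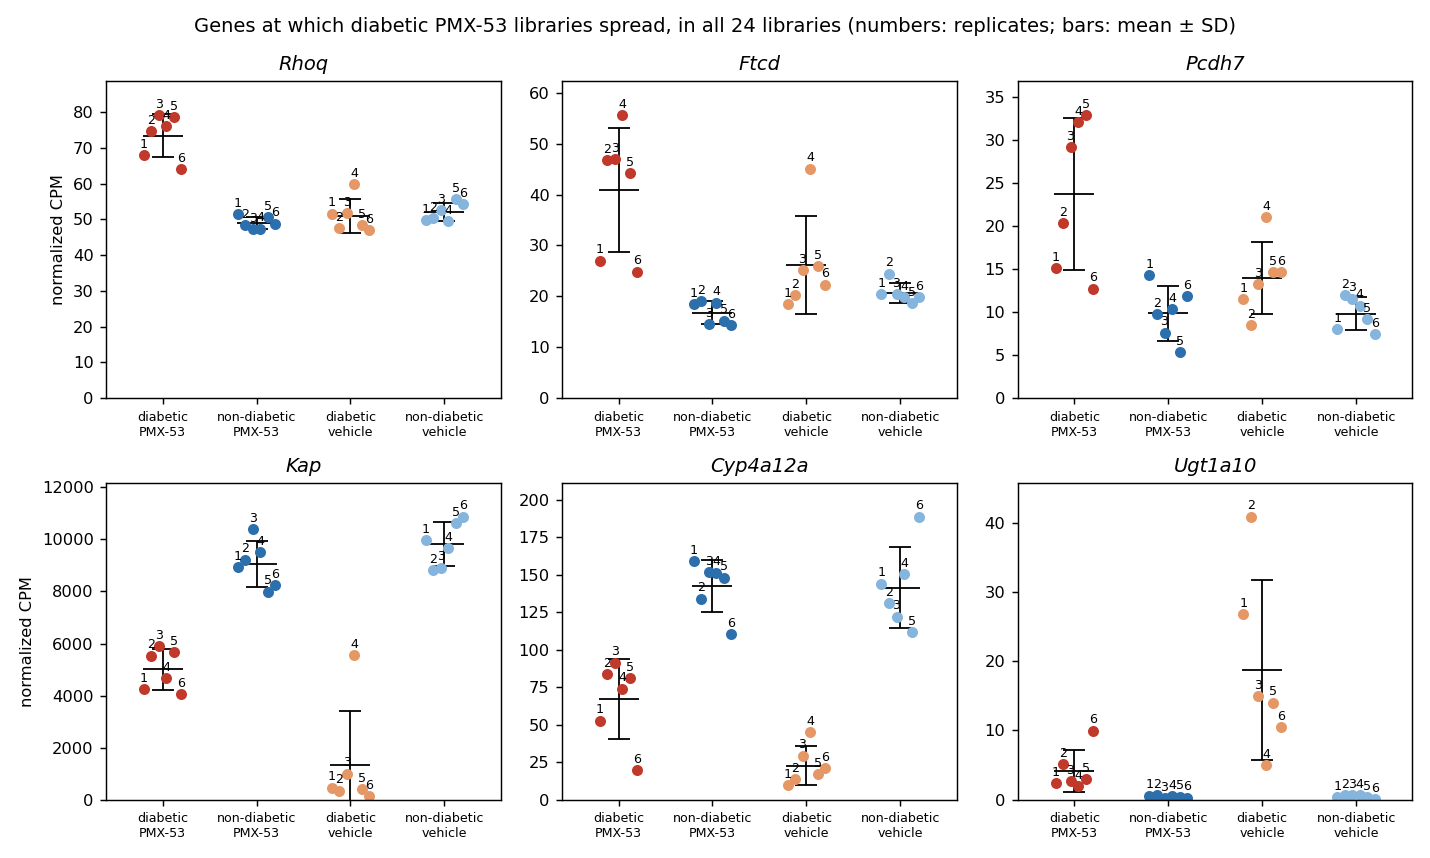
Normalized CPM (vertical axes, linear, from 0) of 6 genes in all 24 libraries, with replicate numbers beside the points and bars for the mean ± SD; for Kap the lower bar of the diabetic vehicle group is cut at 0. Diabetic PMX-53 replicates 1 and 6 lie below the other 4 at Rhoq, Ftcd, Pcdh7, Kap and Cyp4a12a, and diabetic vehicle replicate 4 lies apart from its group at Kap with 5556 CPM.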

How the data were processed

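RNA of 24 mouse renal cortex samples was sequenced after ribosomal RNA depletion of 200 ng of total RNA with a directional kit, per the labels' protocols. Reads were handled with bcl2fastq 2.20.0.422 and STAR on GRCm38, per the submitters' processing notes. No source used here names the annotation, the counter or whether it used strand, so genes that overlap or lie antisense to one another, and near-identical copies, are uncertain. The deposited table holds raw whole-number counts per gene, with no normalization by the authors, per the file headers and values.

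Counts were fitted with edgeR 4.0.16 (R 4.3.3) over all 24 libraries, with 1 coefficient per group, TMM scaling, filterByExpr over the 4 groups (15808 of 48526 genes kept) and robust quasi-likelihood tests. Contrasts were diabetic minus non-diabetic under PMX-53, the same on vehicle, and their difference, each adjusted by Benjamini-Hochberg over all genes tested. SE is the absolute log2 fold change divided by the square root of the quasi-likelihood F. The fit was tested on simulated counts. For library properties, exact permutation tests (two-sided) were used. Motifs were searched in RefSeq promoter windows (GRCm38.p6), and gene positions are GENCODE M21 on GRCm38. Figures used matplotlib 3.10.9 in Python 3.11.15.

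Total counts were 10964992 to 22000895 per library over the series, so genes below about 1 CPM rest on few reads, and PCR duplicates may lie among the counts. The labels do not say more of the replicates than their number, so p-values measure the spread between these libraries. No 2 libraries of a PMX-53 group agreed within counting noise (chi-square per degree of freedom at least 5.46).

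The members, the 76 gene lists and the naming rule were chosen with earlier results of these data known. The text names genes among up to 15 with the largest and 8 with the smallest p in each direction under PMX-53, 4 with the smallest p per list, 8 per direction of the interaction, and a fixed set of kidney and complement genes. List members beyond those 4, with Pcdh7 and Adam11, were named after their values were seen. Alternatives were other scalings (DESeq2 1.42.0 size factors, upper quartile, none), other filters, DESeq2, limma 3.58.1 voom with quality weights, a replicate block, subsets of groups, thinning, removal of mitochondrial and ribosomal RNA genes, and leaving out libraries.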

Additional observations from a re-analysis of the deposited data

Results flagged for a closer look

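Of 282 sets of 6 libraries examined for a value far from the rest of its group (Dixon's test at 95%, which chance passes in about 1 in 20 sets), 10 held one, 2 in diabetic and 8 in non-diabetic PMX-53 libraries. In the diabetic group Aqp2 in replicate 2 was at 91.75 CPM and Miox in replicate 6 at 633.5 CPM. In the non-diabetic group replicate 6 stood out at Aqp2 (110.4 CPM), Col5a2 (27.58 CPM), Ephx1 (24.49 CPM), Fxyd2 (728.5 CPM, the lowest) and the mitochondrially encoded share of counts without ribosomal RNA (3.856%). Non-diabetic replicate 5 stood out at Mdm2 (50.8 CPM), Aldh1a7 (16.53 CPM) and Slc12a3 (1297 CPM).

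The diabetes change differed between PMX-53 and vehicle at 35 of the 134 genes named here and tested (edgeR interaction test, adjusted over 15808 genes). Values are the log2 fold change under PMX-53 minus that on vehicle. It was positive for 20 genes. Those lower with diabetes in both arms, and less so under PMX-53, were Col19a1 (2.64), Cntnap5a (1.80), Hrg (1.72), Cyp4a12a (1.56), Anxa13 (1.49), B4galt5 (1.17), Cyp4b1 (1.15), Srd5a2 (1.03), Fmo5 (0.61), Smad7 (0.51) and Met (0.40). Acad10 (2.22), Kl (0.77), Gclc (0.65) and Gclm (0.45) were called lower on vehicle and not called under PMX-53, and Ftcd (0.95), Gdf15 (0.82), Ccnd1 (0.81), Dcn (0.79) and Rhoq (0.61) were called higher under PMX-53 and not called on vehicle.

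It was negative for 15 genes. C3 (-3.28), Aqp2 (-1.38), Pck1 (-1.20), Nnt (-1.13), Txnip (-0.99) and Slc5a1 (-0.86) were called higher on vehicle and not called under PMX-53. Spp1 (-1.45), Aldoc (-1.20), Gsta2 (-1.10), Slc5a10 (-1.01), Kynu (-0.95), Agt (-0.79), Ephx1 (-0.76), Pkm (-0.67) and Tkt (-0.33) were called higher in both arms, and less so under PMX-53. Each of these differences uses the diabetic vehicle libraries, which stood apart from the other 18 at Nnt and Acad10, and the part of that in each was not tested.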

How the results depend on the processing

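All 1587 genes called under PMX-53 kept their direction in every alternative fit that tested them. Of the 109 called genes named here, 94 stayed called without scaling (lost were Calr, Car3, Col5a2, Cyp4a12a, Dcn, Gsn, Hspd1, Hspe1, Kcnj16, Mfsd2a, Rrm1, Smad7, Snhg11, Spp1 and Trpm6), 104 without the expression filter, 108 with limma, 107 with the replicate block and 88 without diabetic PMX-53 replicates 1 and 6. Without scaling beyond library totals 871 genes were called, 572 higher and 299 lower, with 661 called in both arms. With limma voom 2626 were called, 1372 higher and 1254 lower, with 2281 past the interaction test and 1832 called in both arms. Without diabetic PMX-53 replicates 1 and 6, chosen after seeing the data, 1040 genes were called, 426 of them lower. Without diabetic vehicle replicate 4, also chosen after seeing the data, the interaction passed for 2242 genes. The cause of these shifts was not tested. DESeq2 called 1782 genes and the 12 PMX-53 libraries alone 2009.

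With each of the 12 libraries left out in turn, 1134 to 1544 genes were called, 633 to 864 higher and 501 to 680 lower, with 1151 to 1457 past the interaction test, 6302 to 6421 called on vehicle and 912 to 1196 called in both arms. The mitochondrially encoded share differed by 2.92 percentage points, and by 0.488 without ribosomal RNA (adjusted p = 0.397, exact permutation). The counts gave no sign that replicate numbers pair the libraries: correlations of same-numbered deviations were -0.115 to 0.131, and 1 of 6 numbers correlated best with its own. With the replicate block 1483 genes were called. Weak correlations over 6 numbers cannot exclude a pairing, and the labels do not describe any. Depth limits the genes under about 1 CPM, C5ar1 among them.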
